A study of Mus musculus with 16 samples.

Results

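The genes described here belong to the pathway of protein processing in the endoplasmic reticulum (ER) and had a listed peak of N6-methyladenosine (m6A) in mouse liver. They are the 94 genes, of 8284 with a peak in any list, whose pathway annotation in the deposited peak lists names this pathway, after 8 heat shock genes with names starting with Hsp were left out. Dnajb1 was to be left out as well but had no peak. Together they held 313 of the 28297 deposited peaks. RNA fragments carrying m6A were enriched with an antibody from livers of male mice, 4 labelled db/db and 4 lean controls labelled C57BL/6. The db mutation removes a working leptin receptor, and such mice become obese and diabetic. Each mouse has 1 peak list, from its immunoprecipitated library, and the input libraries were not analysed here. The sources used here give neither the age of the mice nor the background strain of the db/db mice. Non-alcoholic fatty liver disease and the deubiquitylating enzyme RPN11 were the subject of the study, and the comparison asks how the m6A peaks of obese, diabetic mice differ from those of lean mice.

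The liver secretes most proteins of the blood plasma, and these pass through the ER. A new chain enters through the Sec61 channel, receives glycans, folds with the help of lectins, disulfide isomerases and chaperones, and leaves in COPII vesicles for the Golgi. Chains that fail to fold are returned to the cytosol, ubiquitylated and degraded, and an overload of unfolded chains activates the sensors IRE1, PERK and ATF6. Methylation of adenosine marks many mRNAs, often near the stop codon, and bears on their decay and translation. Antibodies against m6A also bind a related methylated adenosine next to the cap of mRNAs, so that peaks at the start of a transcript can hold either.

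Lists held between 2475 and 4807 peaks, and between 30 and 48 of these lay in the ER processing genes. Fold enrichment is the authors' value for a peak, on the scale of the list it comes from, and is given here only as a description. The best fold of a gene in a mouse is its highest, at whichever site, so best folds of different mice can come from different sites. The smallest fold among the ER processing peaks was 3.04 and the highest 200.23. Sequencing depth was unknown, so a gene without a peak may lack methylation, be little expressed or have too few reads. In whole liver, fewer cells of a type and less RNA per cell cannot be told apart. Of 9 hepatocyte markers 4 had a peak (Apoa1, Ttr, Hnf4a and Cyp3a11), as did 4 of 4 endothelial, 4 of 4 stellate cell, 4 of 5 macrophage, 2 of 3 cholangiocyte and 0 of 3 adipocyte markers, and Alb, the main secreted protein of hepatocytes, had none. A peak needs methylation as well as expression, and the part of these cells in the results was not tested.

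Many peaks of the ER processing genes lay at the annotated start of the gene. Start sites and strands were read from RefSeq promoters on GRCm38.p6, the assembly also called mm10, and 80 of the 94 genes matched. Of 277 peaks in these genes, 73 lay within 100 bases of a start, or 26.4%, against 17.6% of the 21453 peaks of all genes with such a start. The window was chosen after the values were seen. Of the 73 peaks, 72 covered the start or lay downstream of it. The share in ER processing genes was above that of all genes in each of the 8 lists. It was 25%, 25%, 25.7% and 17.5% in db/db mice 1 to 4, where all genes gave 13.0%, 17.0%, 16.7% and 16.4%. It was 28.6%, 39.3%, 22.2% and 31.0% in lean mice 1 to 4, where all genes gave 17.5%, 23.7%, 17.9% and 22.8%. Thus the members' shares overlapped between the genotypes, while over all genes each lean list lay above each db/db list, which was not tested. The members' share in db/db mouse 4 lay close to that of its own list as a whole. With peaks of p at most 1e-10, the members lay above all genes in 5 of 8 lists, the exceptions being db/db mouse 4 and lean mice 2 and 4. Counted by gene, 33 of 80 ER processing genes, or 41.3%, had such a peak in at least 1 mouse, against 29.3% of all genes with an annotated start.

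The starts of 4 genes with such peaks are shown from 40 bases before to 30 bases after the RefSeq start, read in the direction of the gene. They are examples, chosen after their values were seen, among start-site regions whose edge falls in this window. Others with such an edge, as in Ppp1r15a, Os9 and Bcap31, are not shown, so the 4 do not stand for all such starts. Sec61b and Prkcsh recurred in 7 mice each, Pdia6 in 4, and in Sec24d, with 2 mice, the region begins at the start itself. Capitals mark bases inside the region covered by peaks. Sec61b encodes a subunit of the Sec61 channel (chr4:47474621-47474690, plus strand), Prkcsh the beta subunit of glucosidase II, which trims glycans (chr9:22002948-22003017, plus strand), Sec24d a cargo-binding subunit of the COPII coat (chr3:123267456-123267525, plus strand), and Pdia6 a disulfide isomerase (chr12:17266549-17266618, plus strand).
Sec61b: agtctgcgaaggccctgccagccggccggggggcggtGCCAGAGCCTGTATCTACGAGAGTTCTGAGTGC
Prkcsh: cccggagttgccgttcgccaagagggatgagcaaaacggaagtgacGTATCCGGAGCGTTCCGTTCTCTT
Sec24d: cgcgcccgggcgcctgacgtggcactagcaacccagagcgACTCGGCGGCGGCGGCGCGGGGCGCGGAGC
Pdia6: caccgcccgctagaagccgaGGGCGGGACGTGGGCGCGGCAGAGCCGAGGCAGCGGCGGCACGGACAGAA
In each of the 4 sequences the first base after the start is A. Among the 33 member starts with a peak within 100 bases, 27.3% had A at this place, against 22.7% of all member starts and 34.4% of 32851 annotated starts. The core GGAC of the m6A consensus, searched in the 50 bases after the start, was present on the sense strand in 11 of these 33 starts, or 33.3%, against 24.7% of the 97 annotated starts of all matched members and 18.9% of all starts. On the other strand, as GTCC, the shares were 9.09%, 16.5% and 17.4%. Of the 4 genes shown, Pdia6 has GGAC in those 50 bases and the other 3 do not. These bases held 68.1% G and C in the 33 starts, 67.3% in all member starts and 56.7% in all starts, and a match says nothing of whether the site is methylated.

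**Figure D1:**
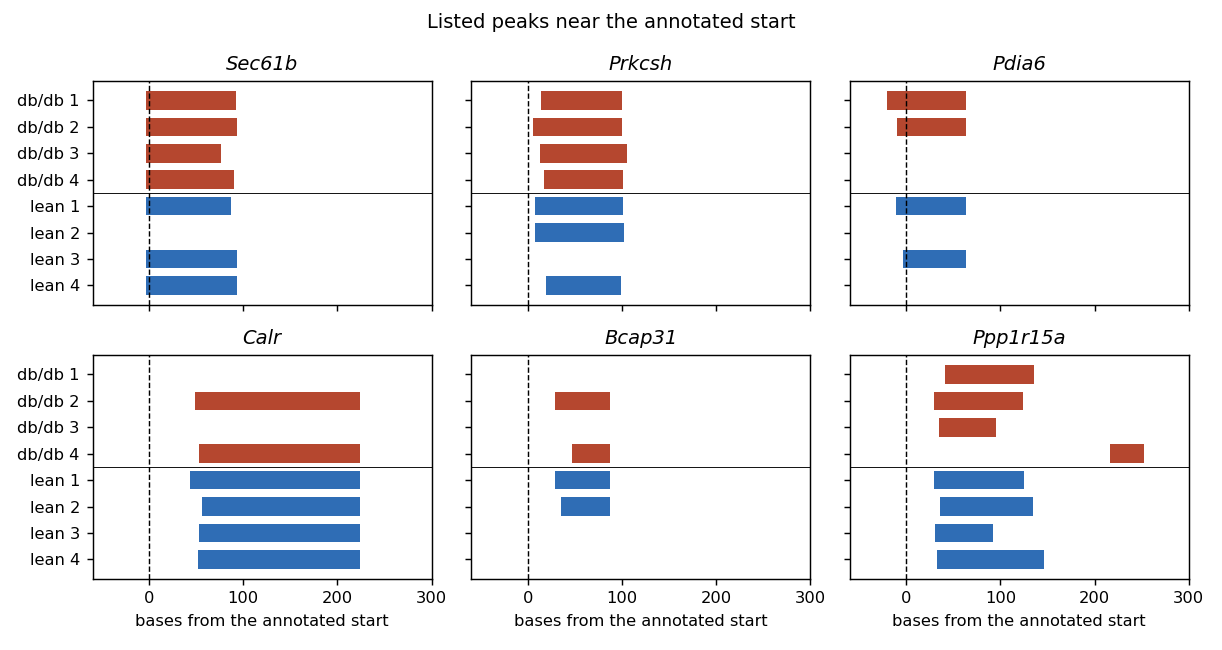
Listed peaks within 300 bases of the annotated start of 6 ER processing genes, 1 row per mouse (db/db in red, lean in blue), with the distance from the start in bases on the horizontal axis and a dashed line at the start. Each bar is 1 peak. In Sec61b all 7 peaks begin at the same base, in Pdia6, Calr and Bcap31 all peaks end at the same base, and in Ppp1r15a db/db mouse 4 has its peak further downstream than the other 7 mice.

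Among the genes for entry into the ER, Rrbp1 and Sec61b recurred most. Rrbp1, a ribosome-binding protein of the ER membrane (gene ID 81910), had a peak in all 8 mice, with best folds of 26.12, 20.17, 14.4 and 26.0 in db/db mice 1 to 4 and 10.44, 36.03, 19.79 and 48.17 in lean mice 1 to 4. It held 6 separate regions, that is, sites formed by merging peaks that share at least 1 base, the most of any ER processing gene, together with Mapk8. Its region at chromosome 2, 143953942 to 143954013 (mm10), spanned exactly the same 72 bases in every mouse, at 89.7% of the gene span from the start. A second Rrbp1 region, at 143957555 to 143957645, had a peak in 4 db/db and 2 lean mice, and another, at 143988148 to 143989854, in 3 and 2. That last region held the longest ER processing peak, of 1542 bases, in db/db mouse 3. Sec61b (gene ID 66212) had its single region, at chromosome 4, 47474658 to 47474753, in 4 db/db and 3 lean mice. Its folds were 10.37, 9.01, 15.51 and 7.93 in db/db mice 1 to 4 and 10.09, 8.65 and 6.15 in lean mice 1, 3 and 4. The 7 Sec61b peaks all began at base 47474658, 3 bases before the RefSeq start at 47474661, as the sequence above shows. Bcap31, a membrane protein that escorts cargo, and Sec62, a partner of the channel, had peaks in 2 db/db and 2 lean mice and in 2 and 1. Of the 15 genes listed for this step, 7 had a peak, and the channel subunits Sec61a1 and Sec61g had none.

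Among genes that add, trim and read glycans, 4 had a peak in at least 6 mice. Uggt1, which puts a glucose back on misfolded glycoproteins (gene ID 320011), had a peak in all 8 mice, and its main region at chromosome 1, 36143950 to 36144251, lay at 96.1% of the gene span in 4 db/db and 3 lean mice. Folds there were 9.49, 6.75, 8.62 and 5.0 in db/db mice 1 to 4 and 5.6, 7.07 and 3.82 in lean mice 1, 3 and 4. Prkcsh (gene ID 19089) had its start-site region, at chromosome 9, 22002994 to 22003092, in 4 db/db and 3 lean mice, with folds of 7.58, 13.22, 5.52 and 6.86 in db/db mice 1 to 4 and 6.41, 5.94 and 4.93 in lean mice 1, 2 and 4. A further Prkcsh region, at 22012034 to 22012103 and 80.7% of the gene span, had a peak in 2 db/db and 0 lean livers. Calr, the lectin chaperone calreticulin (gene ID 12317), had its region at chromosome 8, 84846708 to 84846888, in 2 db/db and 4 lean mice. Its folds were 6.77 and 6.6 in db/db mice 2 and 4 and 5.45, 7.49, 6.82 and 8.03 in lean mice 1 to 4 (Fisher's exact p = 0.429). All 6 Calr peaks shared the base 84846708 as an edge. The mannosidase genes Man1a2 and Man1a had a peak in 3 db/db and 3 lean mice and in 2 and 0, with at most 3 mice at any 1 of the 5 Man1a2 regions. Of 25 genes listed for this step 13 had a peak, and Rpn1, Rpn2 and Ddost, subunits of the glycan transferase, had none.

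Among genes of folding, Erp29, a chaperone of the disulfide isomerase family (gene ID 67397), had a peak in all 8 mice. Its main region, at chromosome 5, 121444751 to 121445358, was present in 3 db/db and 4 lean mice. Best folds of Erp29 were 7.21, 8.9, 7.22 and 13.38 in db/db mice 1 to 4 and 13.17, 7.01, 7.35 and 8.26 in lean mice 1 to 4. The value of db/db mouse 4 came from a peak outside the main region, at 121452193 to 121452232. Values of the 2 genotypes within the main region overlapped. Pdia3, a disulfide isomerase that works with the glycan lectins, had a start-site region in db/db mice 2 and 3, with folds of 9.87 and 13.93, and in 0 lean livers, while Pdia6 had a peak in 2 mice of each genotype. Sil1, a nucleotide exchange factor of the chaperone BiP, had 1 region with folds of 6.49, 6.0 and 9.23 in db/db mice 1, 2 and 4 and without a peak in lean livers, except that lean mouse 1 had a peak elsewhere in the gene, with a fold of 7.11. This was the 1 ER processing region of 180 that differed by 3 or more mice with db/db higher (Fisher's exact p = 0.143), where 0.479% of all 17936 regions did so, and none had lean higher by 3, against 0.663% of all regions. Dnajc5, a J protein of secretory vesicles, held the highest fold, 200.23 in db/db mouse 1, at chromosome 2, 181520935 to 181520982, beside 19.81 for db/db mouse 4 and 24.77 for lean mouse 3. It was chosen after its values were seen. Dnajc10, an ER reductase with a J domain, had 5 regions, each in a single mouse, with best folds of 19.07 in db/db mouse 4 and 9.31 and 9.89 in lean mice 1 and 4. Dnajc1, a J protein of the ER membrane, had peaks in 1 db/db and 2 lean livers. Of 26 genes listed for folding 15 had a peak, and P4hb and Pdia4, further disulfide isomerases, had none.

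Among genes of export, Sec24b, a cargo-binding subunit of the COPII coat (gene ID 99683), had its single region, at chromosome 3, 129983398 to 129983907, in all 8 mice. Folds were 12.15, 17.24, 24.03 and 15.57 in db/db mice 1 to 4 and 23.2, 8.73, 22.76 and 9.06 in lean mice 1 to 4. The 2 sets of values overlapped, and the region lay at 99.0% of the gene span, at the end opposite to the Sec24d peaks. Sar1a, the GTPase that starts coat assembly, had a peak in 1 db/db and 3 lean mice (Fisher's exact p = 0.486), with its start-site region in 0 and 2. Sec31b, of the outer coat, had 5 regions in 2 db/db livers and 1 lean liver, and none of them recurred. Sec23a, of the inner coat, had best folds of 7.71, 9.09 and 4.42 in db/db mice 1, 3 and 4 and 3.39 and 5.69 in lean mice 1 and 2, so neither genotype lacked it. Of 17 genes listed for export 14 had a peak, and Sec13 and Sec31a, also of the outer coat, had none.

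Among genes that recognise and degrade misfolded proteins, Os9, a lectin of the ER lumen (gene ID 216440), had a peak in all 8 mice. Its region at chromosome 10, 127096630 to 127096742, had folds of 5.39, 15.7, 7.79 and 5.37 in db/db mice 1 to 4 and 6.02, 8.24, 6.56 and 9.56 in lean mice 1 to 4. All 8 peaks had an edge at base 127096742. A second Os9 region, at 127098831 to 127098916, was present in 3 db/db livers and 1 lean liver, and another at the start, at 127120957 to 127121160, in 2 and 1. Edem3, a mannosidase that marks glycoproteins for disposal, had a region at chromosome 1, 151818445 to 151818919, in 2 db/db and 3 lean livers. Ube4b, a ubiquitin ligase that extends chains (gene ID 63958), had a peak in 4 db/db mice, with folds of 12.82, 8.76, 14.63 and 12.01, and in lean mouse 1, with 6.51 (Fisher's exact p = 0.143). These peaks fell in 4 regions, and the one shared by 2 mice, at chromosome 4, 149361304 to 149361340, was 37 bases long. March6, a ubiquitin ligase of the ER membrane, had best folds of 8.83, 13.48 and 5.39 in db/db mice 1 to 3 and 10.06 in lean mouse 4, and Rbx1, of a ligase complex of the cytosol, had a start-site region in 2 db/db and 0 lean livers. In the other direction, Ufd1l, a cofactor of the segregase VCP, had a peak in 1 db/db and 3 lean mice, and Nploc4, its partner, Cul1, the scaffold that binds Rbx1, and Edem2, a mannosidase, in 0 and 2 each. Of 55 genes listed for this step 30 had a peak, and Vcp and Syvn1, the main ligase of the ER membrane, had none. Ube2d1, Ube2d2a, Ube2d2b and Ube2d3 encode similar enzymes, so that the placing of reads among them is uncertain.

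Among genes of the unfolded protein response and stress signalling, Ppp1r15a, a phosphatase subunit that restores translation after stress (gene ID 17872), had a peak in all 8 mice. Best folds were 15.22, 19.2, 23.53 and 15.69 in db/db mice 1 to 4 and 22.51, 36.61, 32.04 and 38.63 in lean mice 1 to 4. Those of db/db mice 1 and 4 came from sites outside the start-site region of the other mice. In that region db/db mouse 1 had a fold of 12.03. The highest db/db value exceeded the lowest lean value, and since each fold is relative to its own list they were not tested against each other. Within the 8 lists its best peak lay between percentile 69.4, in db/db mouse 1, and percentile 94.0, in lean mouse 4. Its start-site region, at chromosome 7, 45526123 to 45526239, had a peak in 3 db/db and 4 lean mice, and db/db mouse 4 had a peak at 45526017 to 45526052 instead. A region of Ppp1r15a further along, at 45523971 to 45524237, had a peak in 3 db/db livers and 1 lean liver. Of the sensors, Eif2ak3, which encodes PERK, had a peak in 1 db/db and 2 lean mice. Ern1, which encodes IRE1, had one in 1 and 1, and Atf6 in 0 and 1. Such low numbers were common, as 38.5% of all genes with a peak had it in 1 mouse, 22.7% in 2 and 13.6% in 3. Of the effectors, Xbp1, Atf4 and Ddit3 had no listed peak.

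Mapk8, the stress kinase JNK1 (gene ID 26419), had a peak in 3 db/db and 3 lean mice over 6 regions, and its region at chromosome 14, 33386572 to 33386625, in 3 and 2. Folds there were 5.51, 7.04 and 11.17 in db/db mice 2 to 4 and 32.89 and 10.34 in lean mice 2 and 4. Capn1, a calcium-activated protease (gene ID 12333), had a peak in all db/db livers and that of lean mouse 3, with folds of 11.8, 6.47, 12.95 and 16.02 in db/db mice 1 to 4 and 24.68 in lean mouse 3 (Fisher's exact p = 0.143). Its 5 peaks fell in 5 regions, between 16.4% and 80.3% of the gene span, so no site recurred. Capn2, the related calpain, and Mbtps1, the protease that activates ATF6, were each listed for 3 db/db and 0 lean livers (Fisher's exact p = 0.143 each), again with no region in more than 1 mouse. With peaks of p at most 1e-10, Capn1 was left in 1 db/db and 1 lean liver, Capn2 in 1 and 0, and Mbtps1 in none. Wfs1, an ER membrane protein, had 5 regions in 2 mice of each genotype, each in 1 mouse. Of 30 genes listed here 22 had a peak, and 7 of the ER processing genes (Bax, Eif2ak3, Ern1, Map3k5, Mapk8, Mapk9 and Traf2) are also annotated to the pathway of non-alcoholic fatty liver disease.

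**Figure D2:**
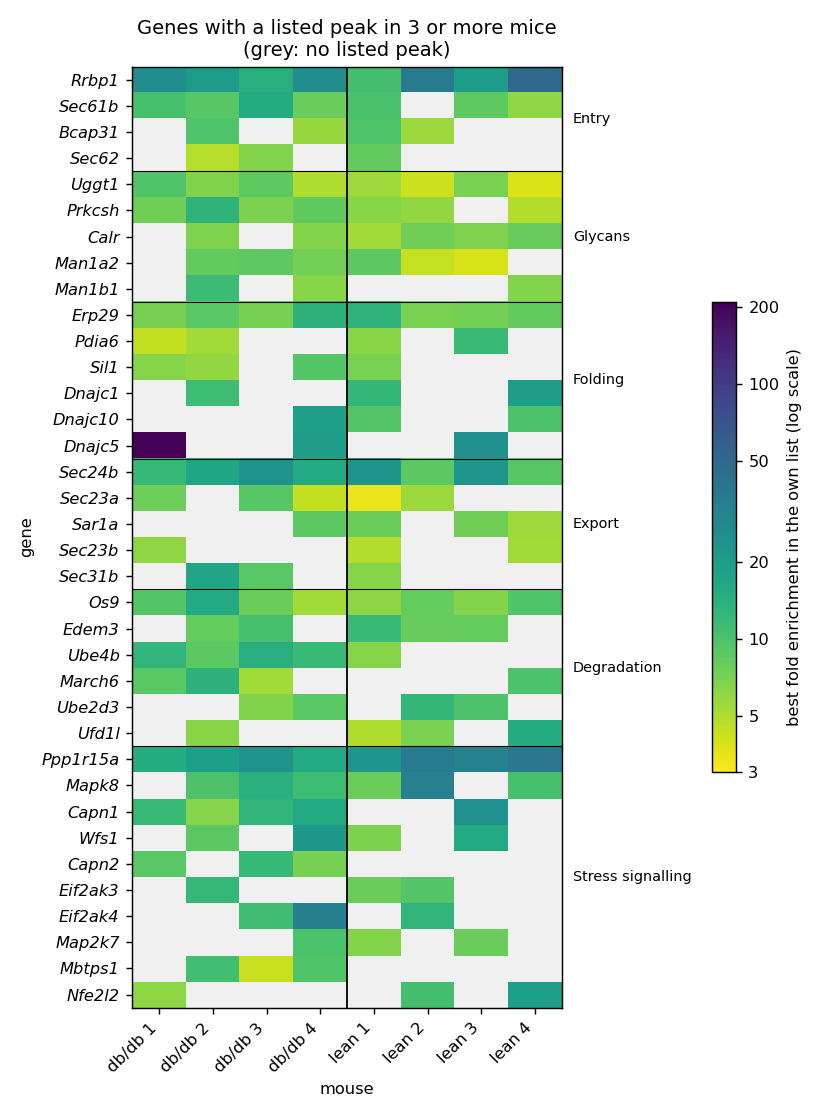
Best fold enrichment of each ER processing gene with a listed peak in 3 or more mice (rows, grouped by role) in each mouse (columns, db/db left of the line and lean right), on a log colour scale, with grey where no peak was listed. Rows for Rrbp1, Sec24b, Erp29, Os9, Uggt1 and Ppp1r15a are filled in all 8 mice, and those of Capn2 and Mbtps1 are filled in 3 db/db mice only.

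The number of ER processing genes with a peak overlapped between the genotypes, and lean mouse 1 set most of the spread among lean mice. Livers of db/db mice had a peak in 34, 30, 33 and 35 of the 94 genes, and those of lean mice in 39, 25, 26 and 23. This gives 33 ± 2.16 genes in db/db livers and 28.3 ± 7.27 in lean livers (SD, n = 4 each), with lean mouse 1 above every db/db mouse and the other lean mice below. As a share of members these are 35.1% ± 2.30 and 30.1% ± 7.74, beside 35.3% ± 5.53 and 30.5% ± 7.60 for all 8284 genes. Without lean mouse 1, lean livers had 24.7 ± 1.53 member genes (SD, n = 3), and the difference grew to 8.33 genes, with mean shares of 35.1% in db/db and 26.2% in lean livers beside 35.3% and 26.9% for all genes. With each list reduced to its 2475 peaks of highest fold, the means were 19.5 ± 4.43 genes in db/db livers and 19 ± 5.23 in lean livers (SD, n = 4 each), and over all genes 2025 and 2030. The members were chosen with results known, so no p is given for these shares. By role, the median difference in number of mice was 0 for each of the 6 groups. The mean number of genes with a peak differed most for stress signalling, with 8 ± 2.45 in db/db livers and 5.75 ± 2.75 in lean livers (SD, n = 4 each). This role was picked as the largest difference of the 6 after the values were seen, and was not tested. Its counts overlapped, at 6, 6, 9 and 11 genes in db/db mice 1 to 4 and 9, 7, 4 and 3 in lean mice 1 to 4. Of its 22 genes, 10 had db/db higher, 7 had lean higher and 5 were equal, close to the shares of all genes given below. For degradation the means were 7.25 ± 1.26 and 7 ± 1.41 (SD, n = 4 each), with 12 genes higher in db/db, 11 in lean and 4 equal. For export both means were 4. In all, 42 members (44.7%) had db/db higher, 30 (31.9%) had lean higher and 22 (23.4%) were equal, beside 45.3%, 32.3% and 22.5% of all genes.

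**Figure D3:**
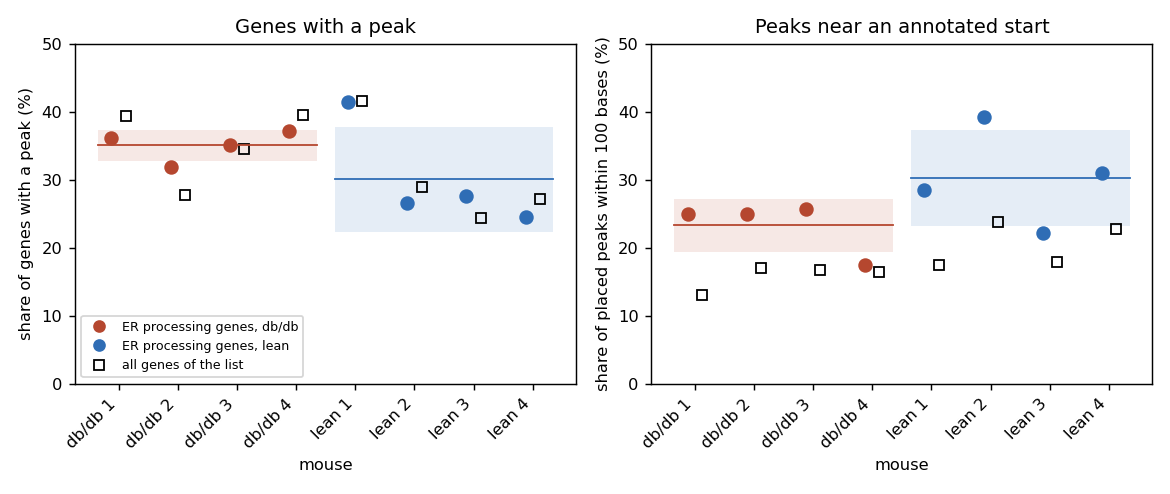
Left, share of genes with a peak, and right, share of placed peaks within 100 bases of an annotated start, in percent, for each mouse. Filled circles are ER processing genes (db/db red, lean blue), and lines with bands their mean and SD over 4 mice. Open squares on the left are the share of all 8284 genes with a peak in any list that had one in that mouse. Open squares on the right are all placed peaks of the same list. On the left the circles lie above the squares in some mice and below in others, and on the right each circle lies above its square, by least in db/db mouse 4.

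In Fisher's exact test over mice with Benjamini-Hochberg adjustment over all genes, 0 of 94 ER processing genes and 0 of 180 of their regions passed, with 0 at an unadjusted p under 0.05, and percent called was 0 among all genes and all regions as well. At 4 against 4 mice this test cannot give a p below 0.0286. After adjustment over 8284 genes or 17936 regions, any could pass only if most of them reached that p. The adjusted counts of 0 were thus set in advance and do not show that the genotypes are alike. With 4 livers of 1 genotype against 0 of the other there were 0 members, against 0.205% of all genes for db/db and 0.133% for lean, and 0 of their regions, against 0.0725% and 0.0948% of all regions. Of the members, 9 had db/db higher by 2 or more mice, or 9.57%, against 12.1% of all genes, and 6 had lean higher, or 6.38%, against 7.33%. By region, 11 had db/db higher by 2 or more mice, or 6.11%, against 4.47% of all regions, and 4 had lean higher, or 2.22%, against 3.57%. A difference of 3 or more mice, a limit added after seeing the data, was found for 4 with db/db higher (Capn1, Capn2, Mbtps1 and Ube4b), or 4.26%, against 2.44% of all genes, and for 0 with lean higher, against 1.1%. With lists of 2475 peaks the count with db/db higher was 2, and with a p of at most 1e-10 it was 0. The median difference in number of mice was 0 for the members and for all genes.

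Most regions of the ER processing genes had a peak in a single mouse, and the difference of these genes' shares from those of all genes was not tested. Of their 180 regions, 134 had a peak in 1 mouse only, 46, or 25.6%, in 2 or more, and 10 in 6 or more (5.56%), against 23.4% and 3.53% of all regions. By gene, 6 members had a peak in all 8 mice (6.38%, against 3.60% of all genes) and 42 in 1 mouse only (44.7%, against 38.5%). Of those 42, 25 were seen in a db/db mouse and 17 in a lean mouse, or 59.5% and 40.5%, beside 57.2% and 42.8% of all genes seen in 1 mouse. Recurrence changed when each list was cut to its 2475 peaks of highest fold. Prkcsh was left in 1 db/db and 0 lean livers, Uggt1 in 2 and 1, and Sec61b in 2 and 2, while Rrbp1, Sec24b and Ppp1r15a stayed in 4 and 4. This cut removes peaks of low fold, so list length and fold cannot be told apart here. Of the 52 members with a peak in 2 or more mice, 18, or 34.6%, had no region shared by any 2 mice, against 38.5% of 5098 such genes overall.

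**Figure D4:**
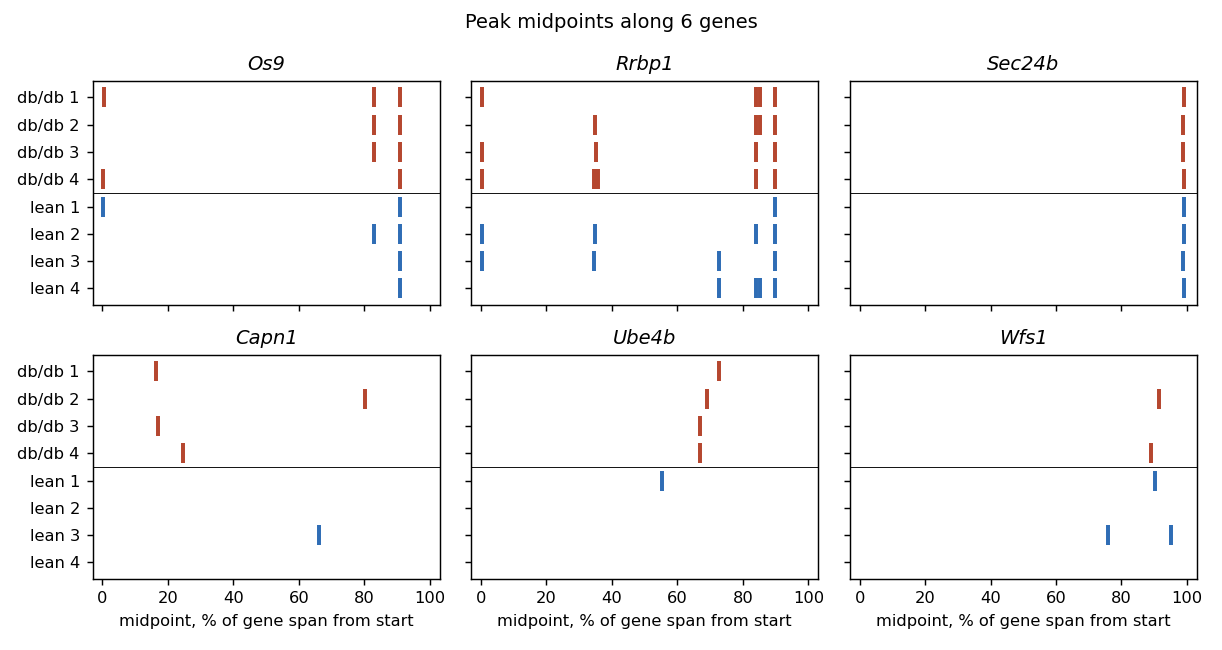
Midpoints of listed peaks along 6 ER processing genes, as percent of the gene span from start to end with introns included, 1 row per mouse (db/db red, lean blue). Os9, Rrbp1 and Sec24b each have a site in all 8 mice, at 91.0%, 89.7% and 99.0% of the span, while no site of Capn1 or Wfs1 recurs and db/db mice 3 and 4 share the 1 recurrent site of Ube4b.

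Along the gene, peaks of the members gathered at both ends. The first 10% of the gene span held 35.7% of the 277 placed peaks, against 24.5% of all placed peaks, and the last 20% held 38.3%, against 37.1%. The first 10% held 33.1% of db/db and 38.9% of lean peaks, the next to last 10% held 21.9% and 14.3%, and the last 10% held 17.2% and 23.0%. Over both genotypes, the members' share was 18.4% in the next to last 10%, against 11.1% for all genes, and 19.9% in the last 10%, against 26.0%. Within each of the 8 lists, the median fold of the members' peaks was below that of the whole list. It was 8.73, 9.01, 8.64 and 8.8 in db/db mice 1 to 4, where the lists gave 11.2, 11.6, 9.74 and 10.9. It was 6.96, 9.04, 8.5 and 8.24 in lean mice 1 to 4, where the lists gave 9.69, 10.8, 13.0 and 12.5. The members' median lay at percentile 35.8 ± 4.55 of its list in db/db livers and 28.4 ± 6.94 in lean livers (SD, n = 4 each). Peaks near a start and other peaks of the members had like median percentiles, 36.0 and 34.0. Median length was 78 bases for the members' peaks and 74 for all peaks.

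**Figure D5:**
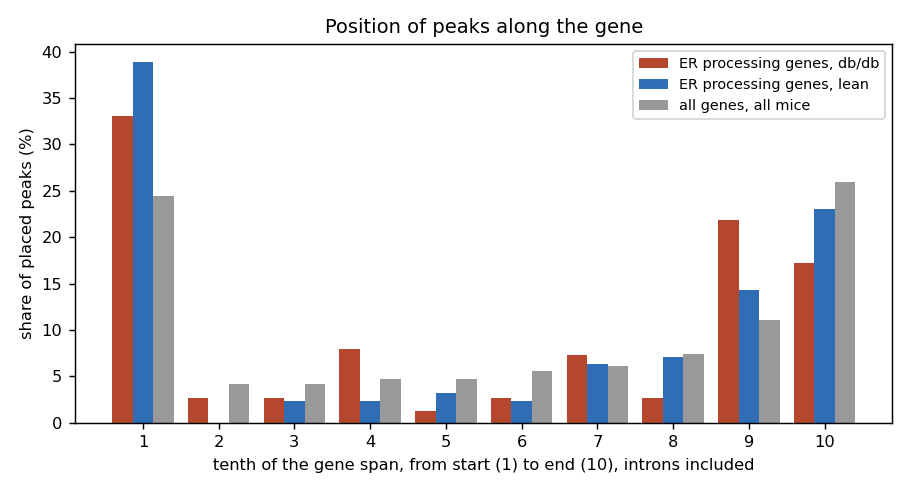
Share of placed peaks, in percent, in each 10% of the gene span, numbered from start (1) to end (10), for the ER processing genes in db/db (red) and lean (blue) mice and for all genes (grey). Bars are highest in bin 1 for the ER processing genes, at 33.1% in db/db and 38.9% in lean mice, against 24.5% for all genes.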

How the data were processed

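Peak lists of 8 mice, 1 per immunoprecipitated library, were assigned by sheet name. The submitters' processing notes list cutadapt 1.9.3, HISAT2 2.0.4 and mm10. Peaks have MACS-like names, per the file headers. Which caller version was used, and whether inputs served as its control, is not given in the sources used here. A peak's fold is a ratio the authors deposited, relative to its own list. The deposited score is -10 times the log10 of the caller's p-value and is at least 50. A further 8 columns repeat it and were not used. Starts were converted to count from 1. Peaks sharing at least 1 base within a gene were merged into regions. Genes and regions were tested with Fisher's exact test (scipy 1.17.1), two-sided, with Benjamini-Hochberg adjustment over all genes or regions, and functions were tested on simulated data. P-values rest only on the numbers of mice with and without a listed peak, and the labels mark these mice as separate samples. All 94 genes matched RefSeq by gene ID, which gave gene bounds, and sequences and starts are those of RefSeq (GRCm38.p6). Distances run along the genome with introns included. No exon annotation was used.

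The members and lists were chosen with earlier results of these data known. Genes named are those with a peak in at least 6 mice, a difference of 2 or more mice, at least 4 regions, a region in at least 6 mice, or 1 of the 5 highest median folds among those in at least 4 mice, and Ern1, Eif2ak3, Atf6, Xbp1, Atf4, Ddit3 and Ppp1r15a. Others are examples for their role, chosen after their values were seen. The role lists held 168 genes of the pathway and related ones, of which 101 had a peak, and 7 of these are not annotated to the pathway in the lists. No share of all annotated genes with a peak stands beside the counts by role. They therefore do not show whether a role has many or few genes with a peak. Alternatives were a fold of at least 5, a p of at most 1e-10, lists cut to 2475 peaks, other definitions of overlap, leaving out names starting with Dnajb1, best peaks, and leaving out each mouse in turn. A further alternative, the replicate block, was an exact two-sided sign-flip test on differences between mice paired by number.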

Additional observations from a re-analysis of the deposited data

Results flagged for a closer look

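Among 45 sets of values from 4 mice, 3 had a mouse well apart from the other values, where chance gives about 1 in 20. Lean mouse 1 had 48 peaks in the ER processing genes, against 30 to 32 in the other lean mice, and its list was the longest of the lean lists, with 4394 peaks. In lean mouse 2 the median fold of these peaks lay at percentile 38.7 of the list, against 24.2 to 26.4 in the other lean mice. In db/db mouse 4, 17.5% of placed peaks lay within 100 bases of an annotated start, against 25% to 25.7% in the other db/db mice, and the median peak of its list was the shortest, with 53 bases.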

How the results depend on the processing

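With Fisher's exact test, 0 ER processing genes and 0 regions passed under each alternative run. The replicate block, a sign-flip test whose smallest possible p is 0.125, also gave 0. These counts were set in advance by the smallest possible p and the adjustment, so they are no check on the processing. Mouse numbers did not pair the mice (correlations of deviations between -0.0280 and 0.00877). Leaving out single mice gave 0 to 1 members with a peak in each mouse of 1 genotype and 0 of the other (1 without db/db mice 1 or 2 or lean mice 1 or 3, each alone), 0 to 5 with db/db higher by 3 or more mice (with 3 db/db mice left this needs 3 against 0, so that the fall to 0 or 1 follows from the limit) and 0 to 2 with lean higher (2 without db/db mouse 2 or 4), 8 to 9 regions in 6 or more mice, and a difference in genes per mouse of 3 to 8.33 (8.33 without lean mouse 1), against 4.75. That difference was 1.25 at a p of at most 1e-10 and 0.5 with lists of equal length. With lists of equal length, 1 member, Ube4b, was listed for 4 db/db and 0 lean livers, 2 had db/db higher by 3 or more mice and 3 regions recurred in 6 or more mice. At a p of at most 1e-10, 0 members had db/db higher by 3 or more mice and 4 regions recurred in 6 or more mice, the members' median percentile was 56.5 (75.2 for all peaks) and their median length 90.8 bases, and the sign of Dnajc10 turned to 25 percentage points. These 2 settings keep fewer peaks. Counted once per gene and mouse, the mean share near a start over the 8 mice was 34.5%, against 26.8% counted by peak, and with a window of 50 bases or equal lengths db/db mouse 4 no longer lay above its list. Of 31 named genes, the number of mice with a peak fell by over 1.5 times for 3 at a fold of at least 5, 23 at a p of at most 1e-10 and 15 with lists of equal length, among them Sar1a (0 db/db and 1 lean) and Capn2 (1 and 0) with equal lengths. Man1a2 was left in 3 db/db livers and 1 lean liver at a fold of at least 5. Depth was unknown and limits what a missing peak means.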
